A study of Mus musculus with 6 samples.

Results

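The proteasome subunit genes were followed in long-term hematopoietic stem cells (LT-HSCs), rare cells of the bone marrow from which all blood lineages can be renewed. Members were the rows whose symbol began with Psma to Psmg and a number, without the immunoproteasome genes Psmb8, Psmb9 and Psmb10, which gave 47 of 21874 genes. They comprised 16 genes of the 20S core (Psma and Psmb), 20 of the 19S cap (Psmc and Psmd), 5 activators (Psme), 4 assembly chaperones (Psmg), the inhibitor gene Psmf1, and Psmc3ip, which matches the pattern but encodes a protein of meiotic recombination and no subunit. The cells were sorted from bone marrow of wild-type mice as lineage-negative, c-Kit-positive, Sca1-positive, CD34-negative and CD135-negative. For 3 months the mice had eaten a serine/glycine-free diet (SGFD, 3 libraries) or a control diet (CD, 3 libraries). Whether a library stands for 1 mouse or for several is not given in the labels. The p-values therefore cover the spread between these libraries only, and that spread may be technical in part.

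The proteasome is the protease that degrades proteins tagged with ubiquitin. Its 20S core is a barrel of alpha rings, which gate the entry, and beta rings, which cut the protein; the 19S cap binds ubiquitin chains, removes them and unfolds the substrate with a ring of ATPases. Other activators can dock in place of the cap, and dedicated chaperones build the rings. Blood stem cells are known for a low rate of protein synthesis and for depending on protein quality control. In many cell types a shortfall of proteasome activity raises the subunit genes together through the transcription factor Nfe2l1.

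Most genes of the particle were moderately higher with SGFD. Of the 46 members that passed the filter on low values, 35 were higher, 1 was lower and 10 did not pass the test (limma, Benjamini-Hochberg adjusted p under 0.05 over all 10618 genes tested). Among all genes tested, 17.6% were called higher and 41.8% lower. The members' median log2 fold change was 0.26, against -0.13 for all genes tested, so the members stood 0.39 above the median gene. In 34 members every SGFD library was above every CD library, a pattern that 19.6% of tested genes showed, and in 3 every SGFD library was below every CD library, as in 45.5% of tested genes. Among the 35, the mean FPKM (fragments per kilobase of transcript, scaled to the library total) was 9.19% to 38.7% higher. Summed over the members, 4563, 4354 and 4683 FPKM were found in the SGFD libraries, against 3763, 3829 and 3733 FPKM in the CD libraries. That was 0.961%, 0.938% and 0.966% of all FPKM in the SGFD libraries and 0.879%, 0.883% and 0.873% in the CD libraries, so the share was also larger in each SGFD library. In a bulk sample, a changed share of a cell type and changed RNA per cell cannot be told apart.

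**Figure D1:**
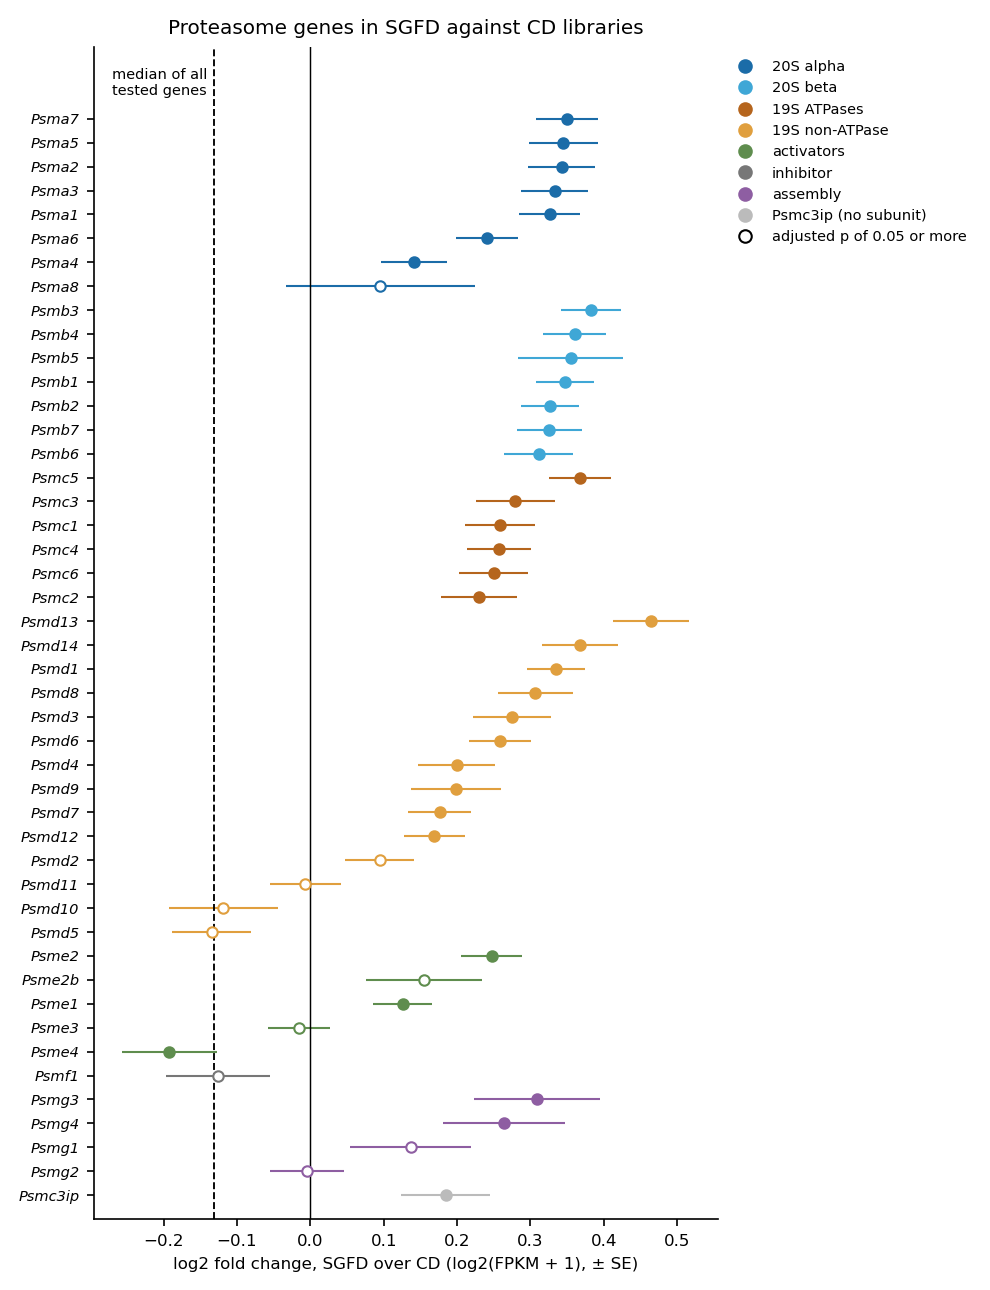
Log2 fold change of each tested member, SGFD over CD on the log2(FPKM + 1) scale (points, with limma standard errors as bars), by class; open points had an adjusted p of 0.05 or more and the dashed line is the median of all tested genes at -0.13. The 7 beta genes lie between 0.31 and 0.38, while Psme4 lies at -0.19.

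The libraries were of like depth. Whole fragments recovered from the deposited values came to between 18205830 and 19301447 per library, and the members had 87 to 6597 fragments each per library, fewest in Psma8. All FPKM summed to 464222 to 485048 in the SGFD libraries and 427769 to 433592 in the CD libraries, a difference that the scalings below treat in different ways. On the first principal component, with 82.2% of the variance, the diets lay apart. The second, with 7.25%, set SGFD replicate 2 apart from SGFD replicate 3. Of 11 tested LT-HSC marker genes 10 were lower in SGFD, their summed level being 216 to 224 FPKM in SGFD libraries and 370.4 to 372.5 FPKM in CD libraries. Of 12 marker genes of granulocyte and monocyte progenitors 11 were higher, with a sum of 3633 to 4029.8 FPKM in SGFD libraries and 934 to 963 FPKM in CD libraries. All 4 tested markers of mature neutrophils were higher, at a sum of 22.8 to 25.6 FPKM in SGFD libraries and 11.1 to 11.7 FPKM in CD libraries. All 3 tested erythroid markers were lower, at 92.1 to 96.4 FPKM in SGFD libraries and 209.6 to 217 FPKM in CD libraries. Of 5 macrophage markers 1 was higher and 4 were lower, and the sums overlapped, at 21.9 to 24.5 FPKM in SGFD libraries and 21.3 to 22.6 FPKM in CD libraries. Cd34 and Flt3, whose products the sort excluded, summed to 513 to 523 FPKM in SGFD libraries and 576 to 601 FPKM in CD libraries, and both were lower. The call of Cd34 (log2 fold change -0.13) did not hold with median-ratio scaling, either length removal (below) or CD replicate 2 left out. Flt3 lost its call with the trend on the files' own length removed. The B cell markers summed to 24.2 to 25.0 FPKM in SGFD libraries and 23.2 to 29.5 FPKM in CD libraries, with 1 of 2 tested lower. The T cell markers summed to 1.26 to 1.62 FPKM in SGFD libraries and 1.89 to 2.38 FPKM in CD libraries, with Cd3e at 0 in every library and the 1 tested gene lower. Most of these marker sums differed between the diets, as the proteasome genes did, and their part in the proteasome results was not tested. Beside these marker counts, 17.6% of all tested genes were called higher and 41.8% lower.

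Promoter sequences are given for 4 members described below: the catalytic genes Psmb5 and Psmb6, the cap gene with the highest fold change, Psmd13, and Psme4, the one member that was lower. They are taken from RefSeq (build GRCm38.p6) and run from 250 bases before the transcript start to 10 bases after it. Psmb5 lies on the minus strand (chr14:54617986-54618245), and Psmb6 (chr11:70525107-70525366), Psmd13 (chr7:140882144-140882403) and Psme4 (chr11:30771525-30771784) lie on the plus strand. Capitals mark the core of the antioxidant response element, TGACNNNGC, to which Nfe2l1 and Nfe2l2 bind with small Maf partners, and the ETS motif CCGGAAG, each searched on both strands.
Psmb5: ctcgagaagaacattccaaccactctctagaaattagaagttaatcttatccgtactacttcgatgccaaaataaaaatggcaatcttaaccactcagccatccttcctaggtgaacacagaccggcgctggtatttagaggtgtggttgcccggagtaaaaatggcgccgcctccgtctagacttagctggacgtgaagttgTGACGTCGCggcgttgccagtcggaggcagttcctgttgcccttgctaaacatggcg
Psmb6: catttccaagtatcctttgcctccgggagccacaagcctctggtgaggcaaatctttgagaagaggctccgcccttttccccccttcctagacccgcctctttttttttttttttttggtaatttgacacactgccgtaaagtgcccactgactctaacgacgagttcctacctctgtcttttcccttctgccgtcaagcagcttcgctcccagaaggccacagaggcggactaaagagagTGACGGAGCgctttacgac
Psmd13: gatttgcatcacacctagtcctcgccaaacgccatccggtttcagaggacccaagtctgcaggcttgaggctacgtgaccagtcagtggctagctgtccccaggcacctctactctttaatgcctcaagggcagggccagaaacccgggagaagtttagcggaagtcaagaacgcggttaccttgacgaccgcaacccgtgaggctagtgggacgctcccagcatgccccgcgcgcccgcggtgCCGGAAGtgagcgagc
Psme4: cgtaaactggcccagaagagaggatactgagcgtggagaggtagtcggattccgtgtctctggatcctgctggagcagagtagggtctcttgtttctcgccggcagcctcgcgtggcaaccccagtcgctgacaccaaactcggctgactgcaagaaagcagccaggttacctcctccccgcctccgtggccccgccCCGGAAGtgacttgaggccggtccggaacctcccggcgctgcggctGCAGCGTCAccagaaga
In Psmb5 the antioxidant response element was found at bases -47 to -39 from the start, and in Psmb6 at bases -9 to -1. RefSeq's gene record for Psmb6 starts further upstream, at base 70525324 of chromosome 11, and counted from there the match lies after the start. Psme4 held that element at bases -7 to 2 on the other strand and an ETS match at bases -53 to -47. Psmd13 held an ETS match at bases -6 to 1. RefSeq promoters of 300 bases (250 before the start and 50 after it) were matched for 39 of the 47 members. Of these 39, 6 held the antioxidant response element, namely Psmb5, Psmb6, Psmc6, Psmd9, Psmd12 and Psme4; that is 15.4%, against 12.5% of all promoters in the table and 15.1% of those of tested genes. Of the 6, 5 were called higher and 1, Psme4, was lower. The ETS motif was in 14 of 39, or 35.9%, against 9.12% of all promoters and 20.3% of those of tested genes. Of the 14, 9 were in members called higher, and 29 of the 39 were called higher. The CCAAT box was in 14 of 39 as well, against 37.9% of all promoters and 39.8% of those of tested genes. TATAAA was in 3 of 39, or 7.69%, against 14.2% of all promoters and 6.51% of those of tested genes. AAGATGGC, a motif of the factor YY1, was in 3 of 39, against 2.88% of all promoters and 5.20% of those of tested genes. TGACGTCA, the cAMP response element, was in 0 of 39, against 1.88% of all promoters and 3.40% of those of tested genes. A match is a description of these letters and does not show binding.

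All 3 genes of the standard catalytic beta subunits rose with SGFD. Psmb5, which encodes the chymotrypsin-like site, had 135, 120.4 and 148 FPKM in the SGFD libraries, against 113, 102 and 99.4 FPKM in the CD libraries. The groups did not overlap, and SGFD replicate 2 was the lowest of its group. The mean was 28.4% higher (log2 fold change 0.35 ± 0.07 SE, limma adjusted p 0.00186). Psmb6, which encodes the caspase-like site, had 148, 134 and 141 FPKM in the SGFD libraries, against 112, 118 and 110.1 FPKM in the CD libraries. Its log2 fold change was 0.31 ± 0.05 (limma adjusted p 0.000319), with no overlap between diets. Psmb7, which encodes the trypsin-like site, had 172, 158 and 174 FPKM in the SGFD libraries, against 131, 135 and 134 FPKM in the CD libraries. Here too every SGFD library was higher, with a log2 fold change of 0.33 ± 0.04 (limma adjusted p 0.000169).

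The other beta genes, which encode structural subunits of the same rings, rose by like amounts. Psmb3 had the highest fold change of the 20S genes, with 166, 158 and 165 FPKM in the SGFD libraries, against 120.2, 128 and 126 FPKM in the CD libraries. Its mean was 30.6% higher (log2 fold change 0.38 ± 0.04, limma adjusted p 4.23e-05). Psmb4, the most abundant core gene, had 236, 227 and 248.8 FPKM in the SGFD libraries, against 189, 182 and 183 FPKM in the CD libraries. The gap between the groups was larger than the range within either, with a log2 fold change of 0.36 ± 0.04 (limma adjusted p 7.56e-05). Psmb1 averaged 190.2 ± 7.08 FPKM with SGFD and 149 ± 1.76 FPKM with CD, and Psmb2 123 ± 2.04 FPKM with SGFD and 98.1 ± 2.93 FPKM with CD (SD, n = 3 each). Both rose, so that 7 of 7 tested beta genes were called higher. Psmb11, the beta subunit of thymus epithelium, was 0 in all 6 libraries and was not tested.

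Of the 8 alpha genes, which form the outer rings and the gate, 7 rose. Psma7 had 147, 148 and 155 FPKM in the SGFD libraries, against 118, 121 and 113 FPKM in the CD libraries. The log2 fold change was 0.35 ± 0.04 (limma adjusted p 7.81e-05), and no CD library reached the SGFD range. Psma5 had 112, 103 and 112 FPKM in the SGFD libraries, against 85.2, 88.6 and 82.8 FPKM in the CD libraries. Psma2, the most abundant alpha gene, had 173, 181 and 192 FPKM in the SGFD libraries, against 140.1, 141 and 148 FPKM in the CD libraries. In both the diets were separate, with log2 fold changes of 0.35 ± 0.05 for Psma5 and 0.34 ± 0.05 for Psma2. Psma1 and Psma3 were close to these at 0.33 each, and Psma6 was at 0.24. Psma4 had the smallest called difference of the core, at 127 ± 6.92 FPKM with SGFD and 115 ± 1.05 FPKM with CD (log2 fold change 0.14 ± 0.04, limma adjusted p 0.0192), and its call was lost when CD replicate 1, CD replicate 3 or SGFD replicate 3 was left out (adjusted p up to 0.0654). Psma8, the alpha subunit of the testis form, was the lowest tested member, with 3.17, 3.04 and 3.41 FPKM in the SGFD libraries and 2.30, 3.85 and 2.80 FPKM in the CD libraries. The CD values enclosed the SGFD values, and the difference did not pass (limma adjusted p 0.540).

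**Figure D2:**
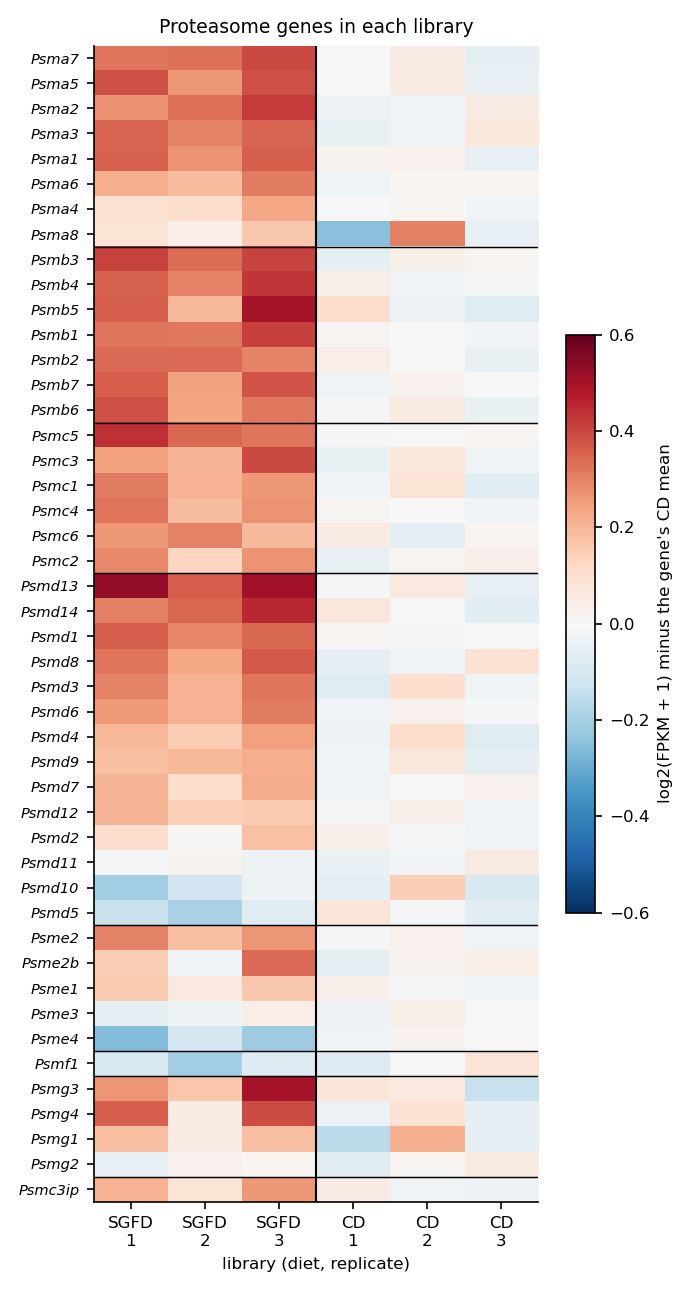
Log2(FPKM + 1) of each tested member in each library minus the mean of the 3 CD libraries for that gene (color, log2 units), with SGFD libraries left and CD libraries right, by class. Psmb5 and Psmd13 are above the CD mean in all 3 SGFD libraries, and Psme4 and Psmf1 are below it in all 3.

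The core thus held 14 of 15 tested genes called higher and none lower (with 17.6% and 41.8% of all genes). The median log2 fold change was 0.33 within a range from 0.10 to 0.38. Across the 14 standard core genes, without Psma8, the SD of the log2 fold changes was 0.061, and the median standard error of a single gene was 0.044. Their levels differed far more from each other than between the diets: within a library, the most abundant gene had 4.27 to 4.52 times the FPKM of the least abundant with SGFD and 4.07 to 4.54 times with CD. The least abundant of the 14 was Psma3 in every library, at 54.3 ± 1.15 FPKM with SGFD and 42.9 ± 1.75 FPKM with CD (SD, n = 3 each).

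The 6 ATPase genes of the cap, whose products form the ring that unfolds substrates, all rose, by 17.7% to 29.4%. Psmc5 had 115, 108 and 106 FPKM in the SGFD libraries, against 84.3, 84.8 and 85.6 FPKM in the CD libraries. The CD libraries lay within a narrow range below all SGFD libraries (log2 fold change 0.37 ± 0.04, limma adjusted p 6.26e-05). Psmc3, the most abundant of the ring, had 143, 139 and 159 FPKM in the SGFD libraries, against 118, 126 and 119 FPKM in the CD libraries. Psmc1 had 140.4, 131 and 135 FPKM in the SGFD libraries, against 112, 119.7 and 108 FPKM in the CD libraries. Both were separate between diets, at log2 fold changes of 0.28 ± 0.05 for Psmc3 and 0.26 ± 0.05 for Psmc1. Psmc2, the least abundant, had 71.1, 63.6 and 70.3 FPKM in the SGFD libraries, against 56.1, 58.8 and 59.4 FPKM in the CD libraries. Its log2 fold change of 0.23 ± 0.05 was the smallest of the ring, and Psmc4 and Psmc6 were at 0.26 and 0.25.

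The lid of the cap holds the deubiquitinase and its scaffold, and 7 of its 8 genes rose. Psmd13, a structural lid subunit, had the highest fold change of all members, with 103, 91.5 and 101 FPKM in the SGFD libraries, against 70.5, 73.8 and 68.6 FPKM in the CD libraries. The lowest SGFD library was well above the highest CD library, and the mean was 38.7% higher (log2 fold change 0.46 ± 0.05, limma adjusted p 5.45e-05). Psmd14, the deubiquitinase that removes the ubiquitin chain, had 87.6, 90.2 and 97.3 FPKM in the SGFD libraries, against 74.4, 70.6 and 67.6 FPKM in the CD libraries. It rose by a log2 fold change of 0.37 ± 0.05 (limma adjusted p 0.000213). The lid genes Psmd8, Psmd3 and Psmd6 were at 0.31, 0.28 and 0.26, and Psmd7 and Psmd12 at 0.18 and 0.17, all called higher. Psmd11, whose product clamps the lid to the core, did not follow: it had 30.4, 31.0 and 29.9 FPKM in the SGFD libraries and 29.8, 30.2 and 31.8 FPKM in the CD libraries. The diets overlapped (log2 fold change -0.01 ± 0.05, limma adjusted p 0.914). Its call depended on the scaling. Psmd11 was called higher with median-ratio scaling (0.13, limma adjusted p 0.0413) and lower after rescaling to a common sum (TPM; -0.15, limma adjusted p 0.0312).

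Of the remaining cap genes, Psmd1, a large scaffold of the base, had 89.7, 85.2 and 88.6 FPKM in the SGFD libraries, against 69.9, 69.0 and 69.4 FPKM in the CD libraries. This was a log2 fold change of 0.33 ± 0.04 (limma adjusted p 7.39e-05) with no overlap. Psmd2, the other large scaffold and the docking site of shuttle receptors, was the most abundant of the non-ATPase genes, with 112, 105 and 118 FPKM in the SGFD libraries and 107, 104 and 103 FPKM in the CD libraries. Its diets overlapped and it did not pass as deposited (log2 fold change 0.09 ± 0.05, limma adjusted p 0.108). Psmd2 was called higher with median-ratio scaling (0.23, limma adjusted p 0.00529) and with the annotated length trend removed (0.21, limma adjusted p 0.00643). After TPM rescaling and quantile normalization it was at -0.05 in each, without a call. Psmd4, a ubiquitin receptor, also belongs to the base and rose, at 92.1 ± 2.99 FPKM with SGFD and 80.2 ± 5.42 FPKM with CD (SD, n = 3 each). The 3 chaperones that build the ATPase ring and leave it afterwards differed among themselves. Psmd9 was called higher at a low level, with 13.6, 13.8 and 14.1 FPKM in the SGFD libraries, against 11.8, 12.5 and 11.5 FPKM in the CD libraries (limma adjusted p 0.0166), and its call did not hold when CD replicate 1 or 3 was left out. Psmd5 had 32.2, 30.9 and 33.7 FPKM in the SGFD libraries and 37.3, 35.3 and 33.9 FPKM in the CD libraries. Every SGFD library was below every CD library, but the test was just missed (log2 fold change -0.13 ± 0.05, limma adjusted p 0.0510). Psmd10 averaged 20.9 ± 1.35 FPKM with SGFD and 22.8 ± 2.21 FPKM with CD and did not pass.

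The cap as a whole had 16 of 20 genes called higher and 0 lower (with 17.6% and 41.8% of all genes), at a median log2 fold change of 0.25 and a range from -0.13 to 0.46. Without the 3 ring chaperones it was 15 of 17. As deposited, the SD of the log2 fold changes over those 17 genes was 0.11, against 0.061 over the 14 core genes. With the length trend removed, the log2 fold changes ran from 0.06 to 0.45 over the 15 tested core genes. Over the 17 cap genes they then ran from 0.10 to 0.49, so the narrower spread of the core holds for the values as deposited only. In each library the mean log2 level of the 17 cap genes was below that of the 14 core genes, by 0.66, 0.67 and 0.70 in the SGFD libraries and 0.62, 0.60 and 0.60 in the CD libraries. The gap was wider in all SGFD libraries. The core transcripts were shorter than the cap transcripts, with median annotated lengths of 1165 and 1887 bases, and with the length trend removed (below) the median log2 fold changes were 0.24 for the core and 0.23 for the cap.

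**Figure D3:**
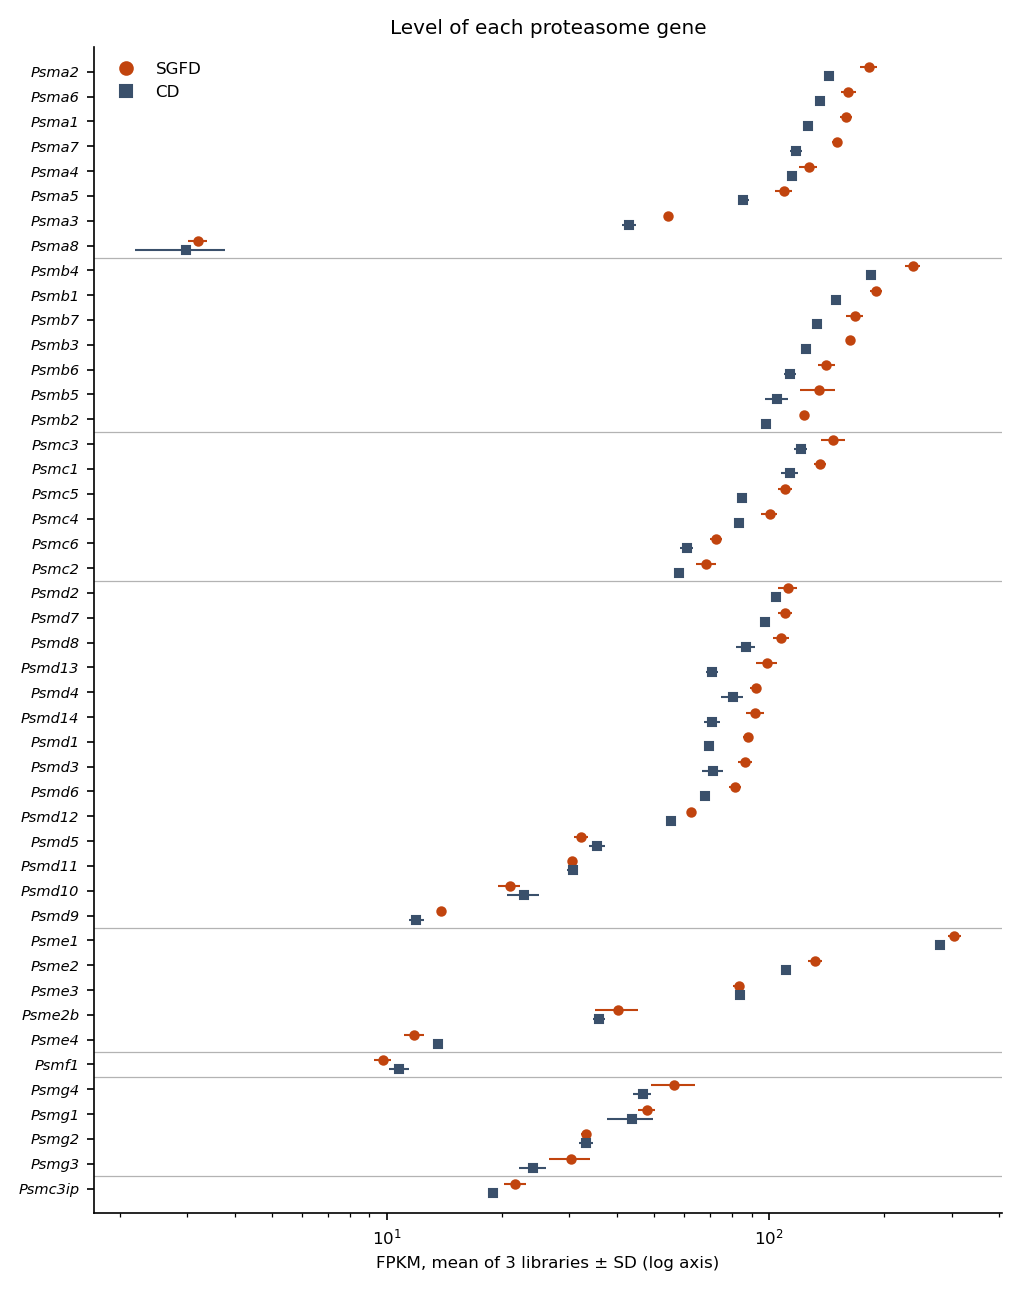
Mean FPKM of each tested member with SGFD (circles) and CD (squares), with the SD over 3 libraries as bars, on a log axis, by class and in order of level. The means run from about 3 FPKM in Psma8 to 305 FPKM with SGFD and 279 FPKM with CD in Psme1.

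The activators did not move as one. Psme1, the most abundant member and the alpha chain of the interferon-induced 11S ring, had 311, 291 and 312 FPKM in the SGFD libraries, against 285, 278 and 275 FPKM in the CD libraries. It was 9.19% higher (log2 fold change 0.13 ± 0.04, limma adjusted p 0.02002), the smallest relative difference among called members, and the call did not hold when CD replicate 2 or 3 or SGFD replicate 1 was left out (adjusted p up to 0.0873) or when the replicate number was used as a block. Under quantile normalization Psme1 was called in the opposite direction (log2 fold change -0.13, limma adjusted p 0.00379). Psme2, its beta chain, had 136, 126 and 133 FPKM in the SGFD libraries, against 110.1, 113 and 109 FPKM in the CD libraries. It rose by a log2 fold change of 0.25 ± 0.04 (limma adjusted p 0.000648), against 0.13 for Psme1. Psme2b, a near-identical copy, had 39.8, 35.3 and 45.7 FPKM in the SGFD libraries and 34.3, 36.4 and 36.9 FPKM in the CD libraries and did not pass; since the counting could split reads between the copies, both values are uncertain. Psme3, which forms a nuclear ring, averaged 83.2 ± 2.80 FPKM with SGFD and 84.1 ± 1.98 FPKM with CD, a log2 fold change of -0.02 ± 0.04 (limma adjusted p 0.771). Psme3 was called lower after TPM rescaling (-0.16, limma adjusted p 0.00389) and quantile normalization (-0.13, limma adjusted p 0.0163). With median-ratio scaling and either length removal its sign was positive, without a call.

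Psme4, the large activator known for histone breakdown in male germ cells, was the one member called lower. It had 11.2, 12.6 and 11.6 FPKM in the SGFD libraries, against 13.3, 13.8 and 13.6 FPKM in the CD libraries. All SGFD libraries were below all CD libraries (log2 fold change -0.19 ± 0.06, limma adjusted p 0.0245). Its call rested on single libraries: it was lost when SGFD replicate 1 or any of the 3 CD replicates was left out (adjusted p up to 0.0927). The call of Psme4 was also lost under median-ratio scaling (log2 fold change -0.06, limma adjusted p 0.403) and quantile normalization (-0.04, limma adjusted p 0.642). With the length trend removed its log2 fold change was 0.13, the opposite sign. Psmf1, an inhibitor of the 20S core, had 9.999, 9.20 and 10.1 FPKM in the SGFD libraries and 10.1, 10.7 and 11.4 FPKM in the CD libraries. The highest SGFD library was just under the lowest CD library, and the difference did not pass (log2 fold change -0.13 ± 0.07, limma adjusted p 0.146). Of the 5 activators, 2 were thus higher and 1 lower (with 17.6% and 41.8% of all genes). Their median log2 fold change was 0.13, which became -0.02 after rescaling to a common sum (TPM) and -0.04 after quantile normalization.

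Among the chaperones of the alpha ring, which work as the pairs Psmg1 with Psmg2 and Psmg3 with Psmg4, 2 of 4 were called higher. Of all tested genes, 17.6% were called higher and 41.8% lower. Psmg3 had 29.2, 27.2 and 34.5 FPKM in the SGFD libraries, against 25.4, 25.2 and 21.9 FPKM in the CD libraries. The libraries of each diet spread widely but did not overlap (log2 fold change 0.31 ± 0.09, limma adjusted p 0.0103). Psmg4 had 60.0, 48.0 and 61.3 FPKM in the SGFD libraries, against 45.4, 49.5 and 44.9 FPKM in the CD libraries. SGFD replicate 2 lay below CD replicate 2, and the call (limma adjusted p 0.0186) did not hold with replicate 1 or 3 of either diet left out. Psmg1 had 49.3, 45.0 and 49.2 FPKM in the SGFD libraries and 38.9, 50.4 and 41.7 FPKM in the CD libraries, with the highest value in CD replicate 2, and did not pass (limma adjusted p 0.174). Psmg2 averaged 33.1 ± 0.967 FPKM with SGFD and 33.2 ± 1.44 FPKM with CD. Psmc3ip, the match that is no subunit, averaged 21.7 ± 1.41 FPKM with SGFD and 18.9 ± 0.612 FPKM with CD and was called higher (limma adjusted p 0.0234). That call did not hold with CD replicate 2 or 3, or SGFD replicate 1 or 3, left out.

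In immune cells and under interferon, Psmb9 can take the place of Psmb6, Psmb10 that of Psmb7 and Psmb8 that of Psmb5. Psmb8 averaged 336 ± 28.2 FPKM with SGFD and 284 ± 4.81 FPKM with CD, Psmb10 75.1 ± 6.45 FPKM with SGFD and 66.6 ± 2.54 FPKM with CD, and Psmb9 99.96 ± 4.04 FPKM with SGFD and 108 ± 6.83 FPKM with CD. Psmb8 was called higher, a call lost after rescaling to TPM and after quantile normalization, where its log2 fold change was -0.02. Psmb10 was called higher with overlapping diets, and that call did not hold under TPM, quantile normalization, either length removal, or with replicate 1 or 3 of either diet left out. Psmb9 was not called as deposited, and it was called lower under quantile normalization, under TPM (log2 fold change -0.25 in each) and with the length trend removed (-0.16, limma adjusted p 0.0224). The ratio of Psmb9 to Psmb6 was 0.671, 0.720 and 0.738 in the SGFD libraries, against 0.980, 0.851 and 1.03 in the CD libraries. This ratio, which a scaling of whole libraries by 1 factor does not change, was lower in all SGFD libraries. The ratio of Psmb10 to Psmb7 was lower in all of them too, at 0.452, 0.429 and 0.460 in the SGFD libraries and 0.503, 0.513 and 0.482 in the CD libraries. The ratio of Psmb8 to Psmb5 overlapped, at 2.61, 2.52 and 2.38 in the SGFD libraries and 2.51, 2.83 and 2.82 in the CD libraries.

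Transcript length moved with the fold changes. Among all tested genes, the median log2 fold change fell over 10 bins of annotated length, starting with 0.14 in the shortest bin and ending with -0.38 in the longest. The members are short, with a median of 1490.5 bases, against 3070 bases for all tested genes, and all 46 tested members had an annotated length. In the shortest bin, 15 of 17 members were called higher, at a median log2 fold change of 0.31, and 43.8% of all genes in that bin were called higher. In the second bin 7 of 10 members were called higher, against 31.9% of its genes, and in the third 8 of 8, against 23.0%. The 3 members in which every SGFD library was below every CD library, Psme4, Psmd5 and Psmf1, lay in the ninth, eighth and seventh bins, where the median of all genes was -0.30, -0.21 and -0.18. For Psmd5 the annotated 4397 bases and the 1966 bases that the deposited values imply were far apart. The implied length, like the fragments recovered, is fixed only up to a factor per gene. The log2 fold change of Psmd5 was 0.08 with the annotated trend removed and -0.13 with the trend on the files' own length removed. In the fifth bin, just under the median length, 2 of 5 members were called higher (Psma2 and Psma3) and Psmd2, Psmd11 and Psme3 were not, against 15.8% of its genes. Psmd1 was called higher in the sixth bin, against 12.4%. For Psma2 the annotated length of 2911 bases and the length that the deposited values imply, 909.8 bases, were far apart, so its bin is uncertain too. The same held in the third bin for Psmb1 (1970 annotated, 996 implied bases) and Psmd12 (1955 and 829), and in the second for Psmc1 (1591 and 722). With the trend on the files' own length removed, the calls of Psmc1 and Psmd12 were lost. In 10 bins of the implied length, 19 of 22 members were called higher in the shortest, against 47.7% of its genes. In the second 12 of 13 were, against 31.8%, and in the third 1 of 3, against 25.8%. Once the trend on annotated length was removed within each library, 31 members were higher and 0 lower. Their median log2 fold change was 0.21, and that of all genes 0.00, with 2676 called higher and 2272 lower. The members' median thus stood 0.39 above the median gene as deposited and 0.20 above it with the trend removed.

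**Figure D4:**
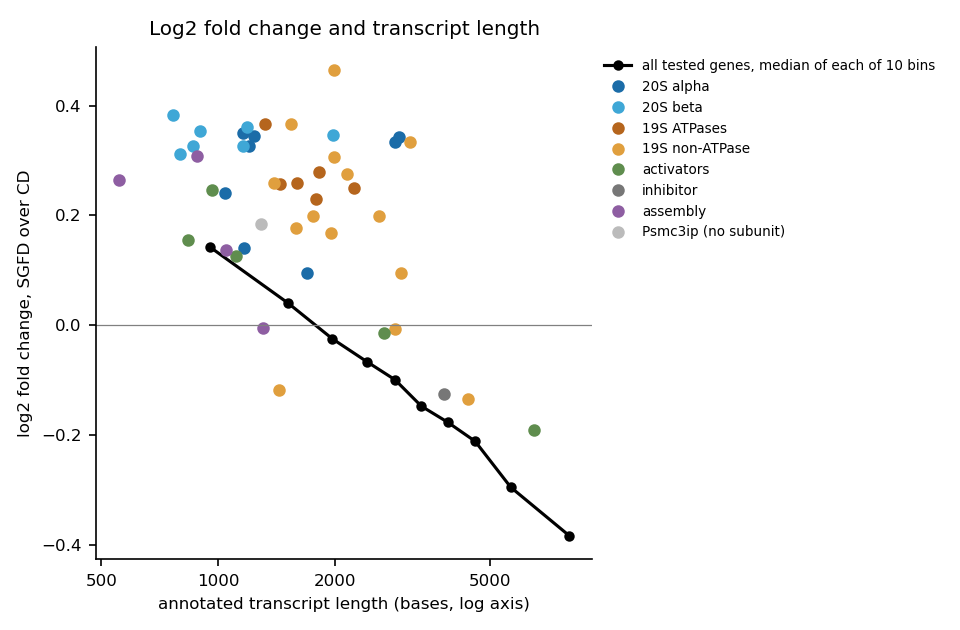
Log2 fold change of the tested members, SGFD over CD (colored points, by class), against annotated transcript length in bases on a log axis, with the median of all tested genes in each of 10 length bins (black line). The line falls as length grows, and most members lie above it, Psmd13 at 0.46 and Psmd1 at 0.33.

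The call counts depended on how libraries were brought to one scale, and the FPKM sums differed between the diets. As deposited, 97.2% of the members' calls were higher (35 against 1), and 29.7% of the calls of all genes. With median-ratio scaling the members had 39 higher and 0 lower calls, and all genes 51.8% higher. Rescaled to a common sum (TPM), 24 members were higher and 7 lower, or 77.4% higher, against 14.02% for all genes, whose median shifted to -0.27. With quantile normalization 27 were higher and 2 lower, or 93.1%, against 47.0%. The members' median stood 0.40, 0.39 and 0.17 above the median gene under these 3 scalings. In all, 20 members were called higher under every alternative tried: Psma1, Psma2, Psma3, Psma5, Psma6, Psma7, Psmb1, Psmb2, Psmb3, Psmb5, Psmb6, Psmb7, Psmc4, Psmc5, Psmd1, Psmd3, Psmd6, Psmd8, Psmd13 and Psmd14. No activator and no assembly gene was among them. The other 15 lost the call under at least 1 alternative: Psma4, Psmb4, Psmc1, Psmc2, Psmc3, Psmc3ip, Psmc6, Psmd4, Psmd7, Psmd9, Psmd12, Psme1, Psme2, Psmg3 and Psmg4. For Psmb4, Psmc3 and Psme2 this was quantile normalization alone, and for Psmc2 and Psmc6 rescaling to TPM alone.

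**Figure D5:**
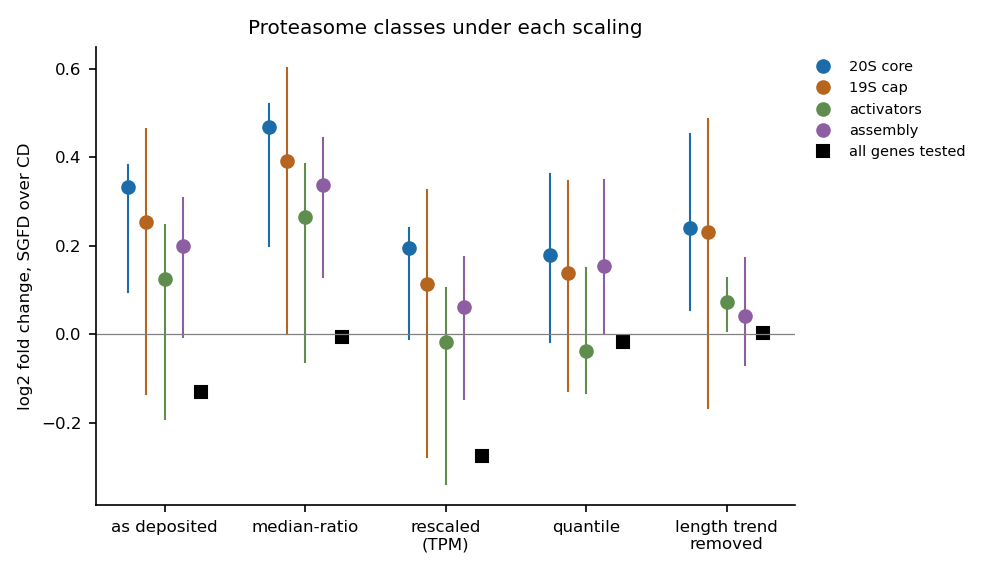
Median log2 fold change, SGFD over CD, of the tested genes of each class (circles, with lines from the lowest to the highest member) and of all tested genes (squares), for values as deposited, under 3 other scalings and with the length trend removed. The core and cap medians are above 0 in all 5 settings, whereas the activator median is at -0.02 after rescaling to TPM.

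Other parts of the proteasome and its surroundings were read from lists. Of 14 subunits and helpers outside the Psm names, 6 rose and 5 fell, beside 17.6% of all tested genes called higher and 41.8% called lower. The lid peptide gene Shfm1 (also named Sem1) averaged 243 ± 15.7 FPKM with SGFD and 189 ± 1.87 FPKM with CD, and Uchl5, a deubiquitinase of the cap, 67.4 ± 1.72 FPKM with SGFD and 52.7 ± 0.920 FPKM with CD (SD, n = 3 each). Both rose by 0.35 on the log2 scale (limma adjusted p 0.000167 for Shfm1 and 7.71e-05 for Uchl5). Uchl5 kept its call under every scaling and length removal, and Shfm1 lost it after quantile normalization (log2 fold change 0.12, limma adjusted p 0.0933) and with the trend on the files' own length removed. Pomp, the chaperone of the beta ring, had 179 ± 2.22 FPKM with SGFD and 153 ± 5.26 FPKM with CD, and Adrm1, a ubiquitin receptor of the cap, 50.2 ± 1.65 FPKM with SGFD and 44.8 ± 0.961 FPKM with CD. They rose by 0.22 and 0.16, but lost the call after rescaling to TPM, after quantile normalization and with the trend on the files' own length removed. Ube3a, a ubiquitin ligase that binds the proteasome, fell, with 11.1 ± 0.897 FPKM with SGFD and 15.7 ± 0.112 FPKM with CD. With the trend on annotated length removed its log2 fold change of -0.46 became -0.01, and the call was lost. Ube3a kept the call with the trend on the files' own length removed and under all 3 other scalings.

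Of 15 genes that control proteasome genes, 2 rose and 7 fell, beside 17.6% of all tested genes called higher and 41.8% called lower. Nfe2l1 had 31.5, 30.3 and 32.1 FPKM in the SGFD libraries and 31.2, 35.1 and 31.2 FPKM in the CD libraries. The diets overlapped (log2 fold change -0.05 ± 0.06, limma adjusted p 0.465), a value that says nothing of the protein, which is controlled by cleavage and turnover. Ddi2, the protease that activates Nfe2l1, averaged 7.60 ± 0.832 FPKM with SGFD and 7.48 ± 0.635 FPKM with CD and did not pass (limma adjusted p 0.871). Nfe2l2, the oxidative stress factor, had 33.9, 32.2 and 33.4 FPKM in the SGFD libraries, against 31.3, 28.8 and 30.4 FPKM in the CD libraries, with no overlap. It was called higher by 0.13 ± 0.05 on the log2 scale (limma adjusted p 0.0385), a sign that turned after rescaling to TPM, and the call did not hold with CD replicate 2 or 3, or SGFD replicate 1 or 3, left out. The small Maf partners differed among themselves. Maff averaged 10.9 ± 2.81 FPKM with SGFD and 4.78 ± 0.172 FPKM with CD and rose. Mafg averaged 5.47 ± 0.391 FPKM with SGFD and 7.64 ± 0.649 FPKM with CD and fell (log2 fold change -0.42, limma adjusted p 0.00175). That call of Mafg was lost under quantile normalization and either length removal. Mafk did not pass (log2 fold change 0.03, limma adjusted p 0.742). Ogt, the O-GlcNAc transferase, averaged 14.4 ± 1.09 FPKM with SGFD and 27.5 ± 2.09 FPKM with CD and fell.

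Among genes upstream of the proteasome, Vcp, the p97 ATPase that extracts ubiquitylated proteins, rose, with 219.8 ± 5.58 FPKM with SGFD and 184 ± 5.63 FPKM with CD, although its sign turned under quantile normalization; of the 18 genes of p97 and its cofactors, 3 rose and 7 fell. Of 6 ubiquitin and E1 genes, 4 rose and 1 fell. Rps27a, which encodes ubiquitin joined to a ribosomal protein, rose, with 1651 ± 68.2 FPKM with SGFD and 1278 ± 32.4 FPKM with CD (SD, n = 3 each). Shuttle receptors had 1 gene of 6 higher and 2 lower, E2 enzymes 7 of 29 higher and 5 lower, and the COP9 signalosome, a complex related to the lid, 4 of 10 higher and 1 lower. These shares compare with 17.6% of all tested genes called higher and 41.8% called lower. They shifted with the scaling: rescaled to TPM, 2 helpers were higher and 6 lower, 0 shuttle receptors were higher and 4 lower, 2 ubiquitin and E1 genes were higher and 1 lower, 1 control gene was higher and 10 lower, 2 genes of the p97 list were higher and 12 lower, 3 E2 genes were higher and 13 lower, and 1 COP9 gene was higher and 5 lower. With quantile normalization there were 4 higher and 4 lower helpers, 3 higher and 2 lower control genes, 2 higher and 1 lower p97 genes, 2 higher and 2 lower ubiquitin and E1 genes, 1 higher and 2 lower shuttle receptors, 7 higher and 3 lower E2 genes, and 3 higher and 0 lower COP9 genes.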

How the data were processed

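Messenger RNA of sorted LT-HSCs was sequenced in 6 libraries, 3 for SGFD and 3 for CD; per the labels' protocols, a stranded mRNA kit was used. The submitters' processing notes list fastp, HISAT2 and StringTie as tools, without versions, and mm10 and GRCm38 as builds. The authors deposited 1 table per library with 1 value per gene symbol, which was taken as FPKM, a unit that the sources used here do not name: in 99.98% of the 15505 genes above 0, the 6 values gave whole fragments, within 0.02, for 1 step size in each library. The fragments recovered are fixed up to a factor per gene and come from genes with 97.1% to 97.4% of FPKM. Of 21878 rows, 4 with repeated date-like names were left out.

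The log2(FPKM + 1) values were fitted in limma 3.58.1 (R 4.3.3; trended, robust empirical Bayes) for genes of at least 1 FPKM in at least 3 libraries. Two-sided p-values were adjusted by Benjamini-Hochberg over all 10618 genes, at a threshold of 0.05. Fold changes on this scale understate those of low genes, and percent differences are of mean FPKM. FPKM is scaled to each library's total and to gene length, so that a few abundant genes, or a length effect, can move it. Transcript lengths came from GENCODE M21 and promoters from RefSeq. The code was tested on simulated data.

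All members could be named; library values are given for the catalytic genes, the up to 3 largest changes per class, calls against their class and the highest and lowest levels, and from each other list up to 4 genes of smallest p and Pomp, Adrm1, Nfe2l1, Nfe2l2 and Ddi2. Mafk is given beside Maff and Mafg, the other small Maf genes of its list. Members and lists were chosen with earlier results of these data known. Alternatives were other filters and pseudocounts, 3 scalings, removal of the length trend, array quality weights, no variance trend, a replicate block, protein-coding genes only, a threshold of 0.01 and each library left out. A trend on the length held in the files' own values was added after seeing the data.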

Additional observations from a re-analysis of the deposited data

How the results depend on the processing

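Filters of 0 or 5 FPKM, pseudocounts of 0.1 and 0.01 and protein-coding genes only changed no member's direction. For all genes, median-ratio scaling gave 3053 higher and 2844 lower calls and rescaling to a common sum (TPM) 1032 higher; 2552 were lower with quantile normalization, 2272 with the length trend removed and 2266 with the files' own length, against 1874 and 4438 as reported. Members called lower, 1 as reported, were 3 with array weights, 7 with TPM, 2 with quantile normalization, and 0 with median-ratio scaling, either length trend removed or a threshold of 0.01; leaving out libraries gave 0 to 2. The cap had 10 higher and 3 lower calls with TPM, 2 lower with array weights, and 0 to 1 lower with a library left out. Activators called higher, 2 as reported, were 0 with quantile normalization and 1 without a variance trend, with the block, TPM, either length removal or the threshold of 0.01, and 1 to 3 with a library left out. Activators called lower, 1 as reported (Psme4), were 2 with quantile normalization (Psme1 and Psme3) or TPM (Psme3 and Psme4). They were 0 with median-ratio scaling, either length removal or the threshold of 0.01, and 0 to 1 with a library left out. Assembly genes called higher, 2 as reported, were 1 with no filter, 0 with TPM, either length removal or the threshold of 0.01, and 1 to 3 with a library left out; with TPM 1 was lower. Signs turned as follows, on the log2 scale. With median-ratio scaling Psmd10 was 0.015, Psmd11 0.13, Psmd5 0.00095, Psme3 0.12, Psmf1 0.00068 and Psmg2 0.13. With TPM Psma4 was -0.00054, Psma8 -0.011, Psmd2 -0.048, Psme1 -0.017 and Psmg1 -0.0031. With quantile normalization Psma4 was -0.017, Psmd11 0.0077, Psmd2 -0.054, Psme1 -0.13, Psmf1 0.055 and Psmg2 0.0012. With the length trend removed Psmd11 was 0.098, Psmd5 0.076, Psme3 0.074, Psme4 0.13 and Psmf1 0.051, and with the files' own length Psmd11 was 0.086, Psme1 -0.0016, Psme3 0.061, Psme4 0.12 and Psmf1 0.023. With a library left out, Psma8 ranged from -0.031 to 0.25, Psmd11 from -0.026 to 0.021, Psme3 from -0.042 to 0.0044 and Psmg2 from -0.038 to 0.023. Apart from what each construction changes, the cause was not tested.

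The labels number the replicates alike in both diets, but same-numbered libraries did not deviate together (correlations of -0.0068, -0.227 and -0.133), so the numbers were not taken as pairs. With the replicate number as a block, 34 members were higher and 1 lower, the call of Psme1 being lost. Depth, at 87 fragments or more per member and library, limits Psma8 most.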
